A study of Mus musculus with 12 samples.

Results

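The 5 genes described here make up the glucose-sensing Mondo pathway and its arrestin branch: Mlxipl (ChREBP), Mlxip (MondoA), Mlx, Txnip and Arrdc4. They were chosen by name through their Ensembl identifiers, and all 5 were present among the 22309 genes of the table. Gene expression arrays, 1 per mouse, had been run on livers from male C57BL/6J mice, 6 injected intravenously with a ChREBP adenovirus and 6 with a GFP adenovirus. The labels give an age of 10 weeks, whereas the methods of the study describe injection at 8 weeks and examination 3 weeks later, on a standard diet. Both groups therefore carried a virus, and they differed in the protein it encoded, ChREBP or the fluorescent control protein GFP. Mice that failed to overexpress GFP or ChREBP were removed by the study, so overexpression of ChREBP was a condition for keeping a ChREBP mouse. Whether it was judged by RNA or protein, and by what cutoff, is not stated.

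ChREBP and MondoA are paralogous transcription factors of the basic helix-loop-helix leucine zipper class. Each pairs with Mlx, and the complex binds carbohydrate response elements, in which E-box motifs stand close together, when glucose phosphates accumulate in the cell. The liver relies mainly on ChREBP, and skeletal muscle on MondoA. Txnip and Arrdc4 encode alpha-arrestins that restrain glucose uptake, and Txnip also binds thioredoxin. Both arrestin genes are known as glucose-induced targets of the Mondo-Mlx complexes.

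The promoters of the genes are shown for the E-box motif CACGTG, the canonical form of the E-box, copies of which, often imperfect, make up a carbohydrate response element. The windows come from RefSeq (GRCm38.p6), are 300 bases long and end shortly after a start site. All 5 genes matched by symbol, Mlxipl with 2 windows whose starts lie 17001 bases apart. CACGTG, which reads the same on both strands, was found in the upstream window of Mlxipl and in the windows of Arrdc4 and Mlx. It was not found in those of Txnip and Mlxip or in the downstream window of Mlxipl. Of all 32851 promoter windows, 7.15% hold CACGTG. The match began 98 bases before the start site in Mlxipl, 193 in Arrdc4 and 40 in Mlx. The longer carbohydrate response element consensus was found in 0 of the 6 windows and in 0.119% of all windows. The variant CACGAG, searched for on both strands only after the windows had been read, was found in 6.47% of all windows. The upstream Mlxipl window held 1 copy, beginning 196 bases before the start site, and the Txnip window held 2, the first beginning 85 bases before it. The Txnip copies stand 5 bases apart in the same direction, a spacing found in 1 of the 32851 windows, that of Txnip. This spaced pattern was also searched for only after the windows had been read, so its match in Txnip was given in advance. The longer consensus cannot match 2 copies of CACGAG in the same direction. Arrdc4 and Mlxipl are shown because their levels rose, and Txnip and Mlx as an arrestin and a gene with CACGTG whose levels did not pass the test. Mlxipl was delivered by the virus, so its rise does not measure the activity of the promoter shown. Whether these motifs relate to any change was not tested. The Mlxipl window is chr5:135089640-135089939 on the plus strand and that of Arrdc4 is chr7:68749189-68749488 on the minus strand. Those of Txnip and Mlx are chr3:96557707-96558006 and chr11:101087040-101087339 on the plus strand. Capitals mark CACGTG or, in Txnip, both copies of CACGAG, and the single CACGAG of Mlxipl is left in lower case.
Mlxipl: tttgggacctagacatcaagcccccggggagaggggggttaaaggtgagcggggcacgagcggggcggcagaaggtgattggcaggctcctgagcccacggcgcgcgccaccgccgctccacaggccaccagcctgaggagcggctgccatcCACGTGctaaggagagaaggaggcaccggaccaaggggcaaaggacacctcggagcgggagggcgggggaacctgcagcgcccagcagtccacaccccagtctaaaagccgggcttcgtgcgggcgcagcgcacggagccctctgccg
Arrdc4: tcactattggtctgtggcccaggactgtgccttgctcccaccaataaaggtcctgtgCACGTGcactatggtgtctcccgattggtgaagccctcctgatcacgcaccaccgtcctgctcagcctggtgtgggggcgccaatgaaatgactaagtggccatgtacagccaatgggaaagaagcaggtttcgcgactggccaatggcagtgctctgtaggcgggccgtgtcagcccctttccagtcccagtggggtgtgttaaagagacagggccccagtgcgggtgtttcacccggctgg
Mlx: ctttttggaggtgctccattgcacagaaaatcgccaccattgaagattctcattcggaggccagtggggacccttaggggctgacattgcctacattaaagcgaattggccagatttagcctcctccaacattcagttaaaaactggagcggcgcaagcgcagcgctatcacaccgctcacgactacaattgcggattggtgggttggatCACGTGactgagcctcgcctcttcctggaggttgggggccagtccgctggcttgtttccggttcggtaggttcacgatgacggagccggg
Txnip: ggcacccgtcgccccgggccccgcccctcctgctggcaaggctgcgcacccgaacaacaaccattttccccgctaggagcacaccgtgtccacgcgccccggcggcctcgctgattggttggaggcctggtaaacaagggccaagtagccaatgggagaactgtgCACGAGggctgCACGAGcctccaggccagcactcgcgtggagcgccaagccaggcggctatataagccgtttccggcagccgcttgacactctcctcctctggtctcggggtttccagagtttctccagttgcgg

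Values were log2 expression levels, on which a difference of 1 is a doubling. In all, 5859 genes differed between ChREBP and GFP livers with an adjusted p below 0.05 (limma, with the Benjamini-Hochberg adjustment across all genes), or 26.3% of those tested, with 12.2% higher and 14.0% lower in ChREBP livers. The share of called genes that were higher was 46.6% in the values as deposited, 32.6% with arrays centred on their medians and 58.1% with cyclic loess normalization. Some livers stood apart from their group. ChREBP livers 4, 5 and 6 and GFP liver 6 had 47, 105, 38 and 62 genes at over 4-fold the median of the remaining livers in their group. The other 8 livers had between 0 and 4 such genes. None of the 5 genes was among them, and each result is also given without these livers where its direction or call changed. The tissue label could not be checked against liver markers, since genes other than these 5 carried no names in the sources used here.

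Mlxipl and Arrdc4 were higher in ChREBP livers, whereas Mlxip, Mlx and Txnip did not pass the test. Thus 2 of the 5 genes were called, both higher, beside 26.3% of all genes called and 12.2% called higher. Of these 2, Mlxipl was the delivered gene, and its overexpression was a condition for keeping a ChREBP mouse. Its call is therefore not a result about the pathway, and among the remaining genes only Arrdc4 was called. A change of at least 1.5-fold was called for 1 of the 5, Mlxipl itself, beside 5.26% of all genes and 3.73% of all genes in this direction. The same 2 genes had ChREBP values entirely above the GFP values, as had 7.68% of all genes, while 14.4% of all genes had groups apart in either direction. A difference in these whole livers may come from the RNA per cell or from the cells present, which cannot be told apart.

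**Figure D1:**
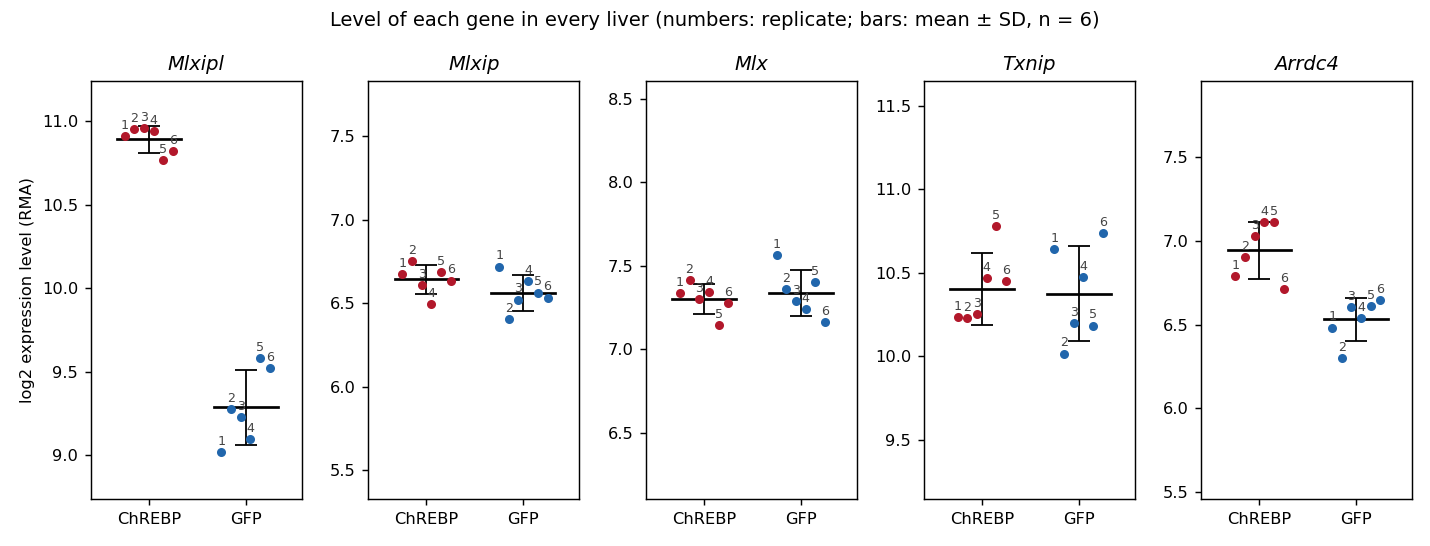
Log2 expression level (vertical axes, each spanning the same number of log2 units) of the 5 genes in 6 ChREBP livers (red, left) and 6 GFP livers (blue, right), with replicate numbers beside the points and mean ± SD as bars. ChREBP and GFP livers are fully apart for Mlxipl and, narrowly, for Arrdc4, and they overlap for Mlxip, Mlx and Txnip.

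Mlxipl (ENSMUSG00000005373_at), which encodes ChREBP itself, was the gene delivered by the virus. Its level in ChREBP livers had a lowest value of 10.77, a median of 10.92 and a highest value of 10.96, against 9.02, 9.25 and 9.58 in GFP livers. The lowest ChREBP liver thus lay 1.18 above the highest GFP liver. The means were 10.89 ± 0.08 in ChREBP livers and 9.29 ± 0.22 in GFP livers (SD, n = 6 each). The log2 change was 1.60 (SE 0.09, limma adjusted p = 3.75e-08), or 3.04-fold with a 95% interval from 2.66 to 3.48. Although it was the delivered gene, 162 other genes had a larger log2 rise. ChREBP livers 5 and 6, with 10.77 and 10.82, were the lowest of their group, and the other 4 lay between 10.91 and 10.96. Among GFP livers, livers 5 and 6 were the highest, at 9.58 and 9.52. The array gives 1 value for the gene, so virus-derived and endogenous transcripts, and transcripts from the 2 start sites, cannot be told apart.

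Mlxip (ENSMUSG00000038342_at) encodes MondoA, the paralog of ChREBP. Its level ranged from 6.50 to 6.75 with a median of 6.65 in ChREBP livers, against 6.40 to 6.72 with a median of 6.55 in GFP livers. The groups overlapped, with 5 of the 6 ChREBP livers above the GFP median and 1 above every GFP liver. The means were 6.64 ± 0.09 in ChREBP livers and 6.56 ± 0.11 in GFP livers (SD, n = 6 each), a log2 difference of 0.079 (SE 0.058, limma adjusted p = 0.326). The 95% interval of the fold ran from 0.969 to 1.15, so a rise or fall of 1.5-fold lies outside it.

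Mlx (ENSMUSG00000017801_at) is the shared partner through which both Mondo proteins bind DNA. It ranged from 7.15 to 7.42 with a median of 7.32 in ChREBP livers, against 7.16 to 7.57 with a median of 7.32 in GFP livers. The highest value was that of GFP liver 1 and the lowest that of ChREBP liver 5. The means were 7.30 ± 0.09 in ChREBP livers and 7.34 ± 0.14 in GFP livers (SD, n = 6 each), a log2 difference of -0.034 (SE 0.067, limma adjusted p = 0.732). The interval of the fold ran from 0.884 to 1.08. Without GFP liver 1 the difference had the opposite sign, at 0.012 (limma adjusted p = 0.893).

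Txnip (ENSMUSG00000038393_at), the thioredoxin-binding arrestin, had the widest spread of the 5 genes between livers of a group. Its residual SD was 0.253, above that of 92.7% of all genes. It ranged from 10.23 to 10.78 with a median of 10.35 in ChREBP livers, against 10.02 to 10.74 with a median of 10.34 in GFP livers. ChREBP livers 1, 2 and 3 lay close together, between 10.23 and 10.25, whereas ChREBP livers 4, 5 and 6 reached 10.47, 10.78 and 10.45. In GFP livers the highest values were those of livers 6 and 1, at 10.74 and 10.64. Thus the 4 livers that stood apart from their groups were also high in Txnip, although GFP livers 1 and 4, which did not stand apart, were high as well.

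The Txnip means were 10.40 ± 0.21 in ChREBP livers and 10.37 ± 0.29 in GFP livers (SD, n = 6 each). The log2 difference was 0.026 (SE 0.13, limma adjusted p = 0.898), with an interval of the fold from 0.838 to 1.24. Its sign was not fixed, at -0.085 without ChREBP livers 4 and 5 (limma adjusted p = 0.662) and -0.065 without ChREBP livers 4, 5 and 6 and GFP liver 6 (limma adjusted p = 0.741). Leaving out ChREBP liver 5 alone gave -0.049, and GFP livers 2, 3 or 5 alone gave -0.046, -0.0095 and -0.013 (limma adjusted p of 0.795, 0.818, 0.969 and 0.954).

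Arrdc4 (ENSMUSG00000042659_at), the other arrestin of the pathway, rose in ChREBP livers. It ranged from 6.71 to 7.12 with a median of 6.97 in ChREBP livers, against 6.30 to 6.65 with a median of 6.57 in GFP livers. Every ChREBP liver lay above every GFP liver, but the gap between ChREBP liver 6 and GFP liver 6 was only 0.063. ChREBP livers 4 and 5 were the highest, at 7.12 and 7.11, and ChREBP livers 6 and 1 the lowest, at 6.71 and 6.79.

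The Arrdc4 means were 6.94 ± 0.17 in ChREBP livers and 6.53 ± 0.13 in GFP livers (SD, n = 6 each). The log2 change was 0.41 (SE 0.08, limma adjusted p = 0.00196), or 1.33-fold, with a 95% interval of the log2 change from 0.24 to 0.59. The rise was smaller than that of Mlxipl, and 1461 genes had a larger one. Without ChREBP livers 4 and 5 it was 0.33 (limma adjusted p = 0.0114), and without all 4 livers that stood apart it was 0.40 (limma adjusted p = 0.00839).

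**Figure D2:**
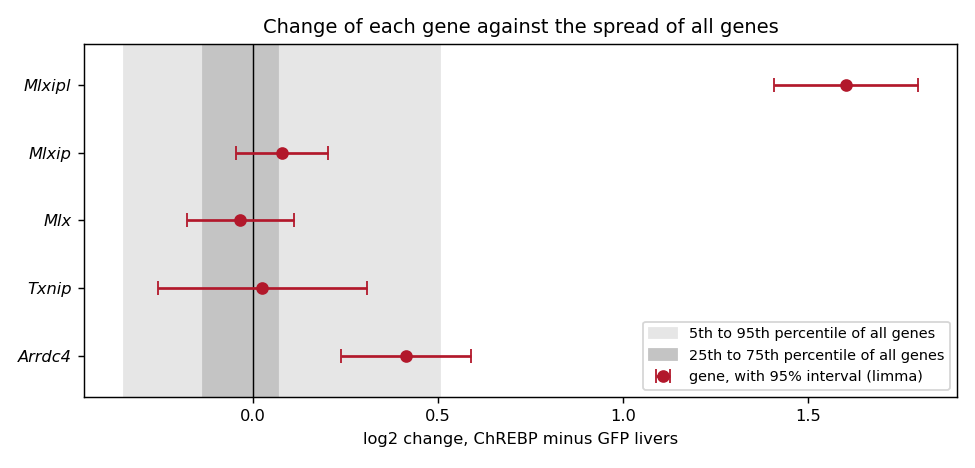
Log2 change of each gene, ChREBP minus GFP livers (points), with its 95% interval from limma. Grey bands hold the middle of the changes of all 22309 genes, from -0.35 to 0.51 between the 5th and 95th percentiles and from -0.13 to 0.067 between the 25th and 75th. Mlxipl, at 1.60, lies beyond both bands, and Arrdc4, at 0.41, lies inside the wider one.

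Whether the genes changed unequally was tested by their log2 difference within each liver, for all 10 pairs (two-sided exact permutation test over 924 arrangements, adjusted over the 10 pairs). Txnip changed less than Arrdc4, with a difference between their log2 changes of -0.39 (SE 0.13, exact p = 0.0216, adjusted p = 0.0309). The differences of Mlx and Mlxip from Arrdc4 were -0.45 (SE 0.13, exact p = 0.00649, adjusted p = 0.0130) and -0.33 (SE 0.10, exact p = 0.00866, adjusted p = 0.0144). The Txnip comparison was the least stable. It was lost after a second quantile normalization (-0.29, exact permutation adjusted p = 0.0680) and without ChREBP liver 1, 2, 3 or 4 or GFP liver 1, where it was between -0.38 and -0.32 (exact permutation adjusted p from 0.0526 to 0.0588). All 3 were lost without ChREBP livers 4 and 5 (exact permutation adjusted p = 0.0612 each), with differences from Arrdc4 of -0.41 for Txnip, -0.33 for Mlx and -0.22 for Mlxip. The call for Mlxip was also lost without GFP liver 1 (-0.29, exact permutation adjusted p = 0.0505), and all 3 without the 4 livers that stood apart (exact permutation adjusted p = 0.0510 each).

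The rise of Mlxipl exceeded the change of each of the other 4 genes, by 1.19 for Arrdc4 (SE 0.11) and by 1.52 to 1.64 for the others. In these 4 pairs the groups did not overlap, with an exact p of 0.00216, the smallest that the permutation can give (adjusted p = 0.00541). Since Mlxipl was delivered by the virus and its overexpression was a condition for keeping a ChREBP mouse, this outcome was set by the design. These 4 pairs also count in the adjustment and so lower the adjusted p of the 6 pairs without Mlxipl. An adjustment over those 6 alone was not run. Mlxip, Mlx and Txnip were not told apart from each other, with differences of 0.11 for Mlxip over Mlx (SE 0.07), 0.053 for Mlxip over Txnip (SE 0.14) and -0.059 for Mlx over Txnip (SE 0.18, exact permutation adjusted p from 0.200 to 0.738).

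Within a group the level of Mlxipl could be set against that of the other genes liver by liver. Over 8 such relations, 4 in each group of 6 livers, none passed adjustment. In ChREBP livers, Mlx was higher where Mlxipl was higher (Pearson r = 0.85, exact permutation p = 0.0236, adjusted p = 0.133). Its Spearman rho was 0.66 (exact permutation p = 0.175, adjusted p = 0.644). Txnip was higher where Mlxipl was lower (Pearson r = -0.83, exact permutation p = 0.0333, adjusted p = 0.133), with a Spearman rho of -0.60 (exact permutation p = 0.242, adjusted p = 0.644). Both relations rested on ChREBP livers 5 and 6, since without them r was 0.11 for Mlx and 0.028 for Txnip. These were also livers with 105 and 38 genes far above their group, and the part of those genes in the relations was not tested. With arrays centred on their medians the relation of Mlxipl to Txnip in ChREBP livers passed adjustment (r = -0.91, exact permutation adjusted p = 0.0444), whereas with cyclic loess it was weaker (r = -0.61, exact permutation adjusted p = 0.533). For Mlx, r was 0.85 with median centring and 0.75 with cyclic loess (exact permutation adjusted p = 0.0833 and 0.533).

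No relation of Arrdc4 to Mlxipl was detected in the 6 ChREBP livers (r = 0.068, rho = 0.14, exact permutation adjusted p = 0.879 and 0.803), and r was 0.60 without livers 5 and 6. ChREBP liver 5 had the lowest Mlxipl level and the second highest Arrdc4 level of its group. For Mlxip r was -0.20 and rho -0.26 in ChREBP livers (exact permutation adjusted p = 0.857 and 0.803), and r was -0.0055 without those livers. In GFP livers r was -0.48 for Mlxip, -0.38 for Mlx, -0.15 for Txnip and 0.42 for Arrdc4 (exact permutation adjusted p between 0.744 and 0.857). The matching rho values were -0.49, -0.20, -0.31 and 0.60 (exact permutation adjusted p between 0.644 and 0.803). Without GFP livers 5 and 6 the r values were -0.98, -0.52, -0.996 and -0.37. These rest on only 4 livers and were not tested.

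**Figure D3:**
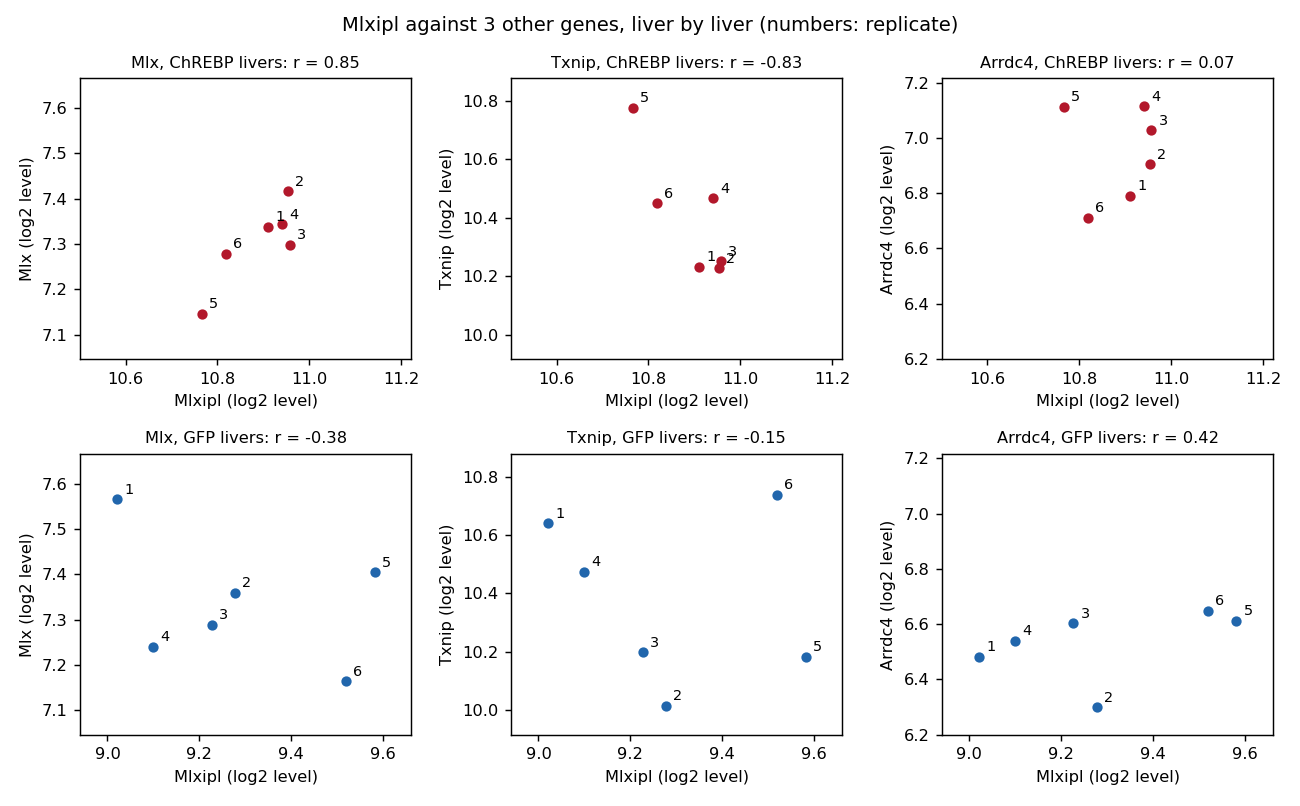
Log2 level of Mlx, Txnip and Arrdc4 (vertical axes) against that of Mlxipl (horizontal axes) in each ChREBP liver (red, upper row) and GFP liver (blue, lower row), with replicate numbers. In ChREBP livers the slopes for Mlx (r = 0.85) and Txnip (r = -0.83) come from livers 5 and 6, and the other 4 livers lie between 10.91 and 10.96 in Mlxipl.

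Among all other genes, those most like Mlxipl over the 12 livers, after each was centred on its GFP mean, were ENSMUSG00000012519_at and ENSMUSG00000050578_at. They differed from Mlxipl by a root mean square of 0.163 and 0.166 on the log2 scale. Their log2 changes were 1.64 and 1.69. The measure includes the group difference, so changes near that of Mlxipl follow from the choice, and likeness within a group was not tested. Neither identifier was paired with a name in the sources used here.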

How the data were processed

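Total RNA of 12 mouse livers was amplified, labelled with biotin and hybridised to Affymetrix Gene ST arrays, 1 per mouse. The labels name the mouse 1.0 design and the methods of the study a human 2.0 design, while the identifiers were those of mouse genes. The authors deposited log2 values made by RMA, which corrects background, quantile normalizes arrays and summarises probes per gene. RMA removes shifts shared by most genes and can compress the folds of dim genes, which was not tested here. RMA and Partek are named in the submitters' processing notes, and their versions are not given in the sources used here. The definition of the gene probe sets, the species and isoform of the delivered ChREBP sequence, and any hybridisation batches are likewise not given there. Precision was limited by the 6 arrays per group.

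The sample titles gave each group and replicate number, and each sample was a separate mouse. All 12 columns of the table were used, with 22309 rows and 0 missing values, and 0 pairs of arrays were identical. The 5 genes and the gene lists were chosen with earlier results of these data known. The symbols of the 5 genes were supplied with their identifiers. In the gene table supplied, 0 of 49997 genes had an Ensembl identifier, so the pathway and cell type lists could not be applied, and of the rule for named genes only the part on these 5 genes was followed. The search for genes of like pattern, meant for named genes, was run on identifiers and limited to 2. The rule for promoters took genes past an adjusted p of 0.05 and 1.5-fold, and Arrdc4, Txnip and Mlx were added after their values were seen. Protein sequences were not used here.

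Differences were fitted over all genes by limma 3.58.1 under R 4.3.3 (lmFit, then eBayes) for ChREBP minus GFP. Tests were two-sided, and p-values were adjusted after Benjamini and Hochberg across all 22309 genes. The fit was tested on simulated data. Pairs of genes and relations within groups were tested by exact permutation in Python 3.11.15 (numpy 2.4.6, scipy 1.17.1), and figures drawn with matplotlib 3.10.9. Alternatives were other normalizations, filters on dim genes, other priors and weights, the methods' analysis of variance per gene, the replicate number as a block, and fits without single or several livers.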

Additional observations from a re-analysis of the deposited data

How the results depend on the processing

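The rises of Mlxipl and Arrdc4 kept their direction and call under all 24 alternatives run, with log2 changes from 1.55 to 1.70 and from 0.33 to 0.48 (limma or the methods' analysis of variance, adjusted p up to 2.54e-05 and 0.0114). Mlxip stayed between 0.019 and 0.11 and was not called. The differences of Mlx and Txnip changed sign without being called. Mlx was -0.11 after a second quantile normalization and lay between -0.068 and 0.012 without each liver in turn. Txnip was -0.0050 with arrays centred on their median, -0.035 with array weights, -0.085 without ChREBP livers 4 and 5, -0.065 without ChREBP livers 4, 5 and 6 and GFP liver 6, and between -0.049 and 0.098 without each liver in turn. The count of called genes ranged from 4686 to 7290 and that at least 1.5-fold from 1002 to 1263.

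Between genes, Mlxip minus Txnip was -0.038 after a second quantile normalization, -0.014 without liver 6 of both groups and between -0.025 and 0.12 without each liver in turn, with 0.17 without the 4 livers that stood apart. Mlx minus Txnip was 0.081 without ChREBP livers 4 and 5, 0.045 without the 4 livers that stood apart, and between -0.17 and 0.047 without each liver in turn. Mlxip, Mlx and Txnip minus Arrdc4 were -0.22, -0.33 and -0.41 without ChREBP livers 4 and 5 and -0.29, -0.42 and -0.47 without the 4 livers, where they were no longer called and fewer arrangements can be made. Txnip minus Arrdc4 was also not called after a second quantile normalization (-0.29). Without each liver in turn Txnip minus Arrdc4 lay between -0.44 and -0.32, with the call lost in 5 of 12 fits, and Mlxip minus Arrdc4 between -0.38 and -0.27, with the call lost without GFP liver 1 (exact permutation adjusted p = 0.0505). Mlx minus Arrdc4 reached -0.50 without GFP liver 6 and stayed called in all 12 such fits. With arrays centred on their median, r between Mlxipl and Mlxip in ChREBP livers was 0.017, that with Arrdc4 -0.024, that with Txnip -0.91 and that with Mlx 0.85. With cyclic loess these were -0.54, 0.14, -0.61 and 0.75, none of which passed adjustment. The causes of these shifts were not tested.

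The replicate numbers did not pair the livers, since same-numbered livers correlated between -0.065 and 0.24 in their deviations from the group means. With the number as a replicate block the log2 changes were the same, Mlxipl at 1.60 (limma adjusted p = 2.54e-05) and Arrdc4 at 0.41 (limma adjusted p = 0.00561), and 4787 genes were called. Alternatives for the gene lists were not run.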

Other observations

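In 10 sets of 6 livers, 1 for each gene and group, 0 held a single liver far from the others by Dixon's criterion. The highest ratio of gap to range was that of Txnip in ChREBP livers, 0.564, where ChREBP liver 5 was at 10.78 and the next at 10.47.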
